A study of Homo sapiens with 11 samples.

Results

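MARCKS, its relative MARCKSL1 and genes of protein kinase C (PKC), a kinase family with members that phosphorylate such proteins, were followed at the mRNA level in a bortezomib resistance model. The genes were taken by symbol, MARCKS, MARCKSL1, PRKCA, PRKCB, PRKCD, PRKCE, PRKCH, PRKCI, PRKCQ and PRKCZ, and all 10 were measured among 17372 genes. They were read by 17 probes, of which all 17 passed the filter on dim probes. The cells were human CCRF-CEM T-lymphoblast leukemia cells, profiled on Agilent whole-genome arrays in 11 samples. Untreated parental cells (CEM/WT, n = 2) received no drug, and parental cells exposed for 24 h to 7 nM of the proteasome inhibitor bortezomib (BTZ) formed CEM/WT_BTZ (n = 3). The resistant subline CEM/BTZ7 was grown in 7 nM BTZ (n = 3), CEM/BTZ100 in 100 nM (1 sample) and CEM/BTZ200 in 200 nM (1 sample), whereas CEM/BTZ-200 (1 sample) is the subline resistant to 200 nM after prolonged culture without BTZ. Each resistance level was represented by a single selected subline, so the replicates of CEM/BTZ7 are samples of 1 line. The labels describe continuous culture in BTZ with fresh drug 24 h before RNA isolation, whereas the methods describe 7 drug-free days and then 24 h of BTZ, and both apply to all resistant sublines except CEM/BTZ-200. The labels do not say whether replicates were separate cultures, and p-values then reflect only how far these samples spread, which can be technical.

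MARCKS is a myristoylated protein that binds acidic phospholipids of the plasma membrane, sequesters PIP2 and crosslinks actin. Phosphorylation of its effector domain by PKC, or binding of calmodulin to that domain, releases it into the cytosol, and MARCKSL1 works in a similar way. Conventional PKC isoforms (PRKCA, PRKCB) respond to calcium and diacylglycerol, a second class (PRKCD, PRKCE, PRKCH, PRKCQ) responds to diacylglycerol without calcium, and atypical isoforms (PRKCI, PRKCZ) respond to neither. In T cells PRKCQ is the isoform best known for signalling from the antigen receptor.

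Values are quantile-normalized intensities. A probe was taken as above background where it exceeded the 95th percentile of the negative control spots of its sample, and on the normalized scale this limit lay between 6.95 and 22.2. Before normalization CEM/BTZ-200 and CEM/BTZ200 were the dimmest samples, with medians of 67.3 and 67.96, whereas the other 9 had medians of 124 to 188. Of 10 T cell markers, 9 were above background in every sample, and their summed level was 88315 to 135887 in CEM/WT, 52694 to 70065 in CEM/WT_BTZ and 114893 to 145038 in CEM/BTZ7. Of 9 tested T cell markers 4 (CD2, CD5, CD7 and LCK) were lower in CEM/WT_BTZ than in CEM/WT, with a list median of -0.86 log2 units. From CEM/WT_BTZ to CEM/BTZ7 5 of the 9 (CD2, CD3D, CD3E, CD3G and LCK) rose, with a list median of 1.01. Of all genes 15.5% and 22.3% were called in these comparisons. CD247 went the other way in both (0.32 and -0.38), as did CD7 in the second (-0.02), without a call. Of 6 B cell markers, 3 (CD79A, CD79B and PAX5) were above background in all samples, as were 4 of 7 myeloid and 4 of 5 epithelial markers. In CEM/BTZ7 against CEM/WT_BTZ 1 of 3 tested B cell markers (CD79A, log2 fold change -1.91) and 1 of 5 tested myeloid markers (ITGAM, -0.87) were lower. The medians of these lists were -0.38 and 0.27. Of 4 tested epithelial markers EPCAM was higher (5.63), while the median of the list was -0.47. In CEM/WT_BTZ against CEM/WT 1 of the 5 myeloid markers was lower (MPO, -1.44, also the median of the list) and no B cell or epithelial marker was called. The part of these marker shifts in the results for MARCKS and PKC genes was not tested.

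The promoters of MARCKS and MARCKSL1 are shown because these relatives differ in how far their levels vary between groups. The sequences are the 250 bases before the annotated start, from RefSeq on GRCh38.p14, read 5′ to 3′ on the strand of the gene. MARCKS lies at chr6:113857095-113857344 on the plus strand and MARCKSL1 at chr1:32336234-32336483 on the minus strand. Capitals mark the GC box GGGCGG and the CCAAT box CCAAT, each searched on both strands, where overlapping GC boxes run together.
MARCKS: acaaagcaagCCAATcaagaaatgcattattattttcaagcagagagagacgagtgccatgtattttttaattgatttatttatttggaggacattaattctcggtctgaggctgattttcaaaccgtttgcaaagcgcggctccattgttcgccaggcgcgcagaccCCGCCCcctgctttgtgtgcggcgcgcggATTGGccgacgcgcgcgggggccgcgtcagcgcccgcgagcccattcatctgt
MARCKSL1: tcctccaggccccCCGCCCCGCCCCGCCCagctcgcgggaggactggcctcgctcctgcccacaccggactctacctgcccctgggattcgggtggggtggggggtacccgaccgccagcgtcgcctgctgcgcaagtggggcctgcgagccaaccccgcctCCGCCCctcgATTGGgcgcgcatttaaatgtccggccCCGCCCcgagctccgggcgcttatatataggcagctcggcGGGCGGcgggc
The MARCKS window held 1 GC box and 2 CCAAT boxes, and the MARCKSL1 window held 6 GC boxes and 1 CCAAT box. Of 35116 promoter windows of the same length, 42.6% held a GC box and 32.0% a CCAAT box. The AP-1 element TGANTCA, present in 6.57% of windows, and the cyclic AMP element TGACGTCA, present in 1.65%, had no match in either window. The letters TATAA, found in 18.9% of windows, occurred once in the MARCKSL1 window on either strand and not in that of MARCKS. GC content was 52.8% for MARCKS and 74.0% for MARCKSL1. A match is a description of the letters and shows no binding.

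MARCKS was low in untreated parental cells and high in every resistant subline. Its single probe gave 32.0 in both CEM/WT samples. In CEM/WT_BTZ it gave 115, 52.2 and 143. In CEM/BTZ7 it gave 8061, 6790 and 5240. The 3 groups did not overlap, and even the lowest CEM/WT_BTZ value was above both untreated samples. MARCKS gave 10465 in CEM/BTZ100, 9225 in CEM/BTZ200 and 6310 in CEM/BTZ-200. All 11 values were above background, and the drug-free subline lay within the range of CEM/BTZ7. The study singled MARCKS out from these samples for its level in the resistant sublines, so its differences there are given as a description without a test. On the log2 scale MARCKS was 5.95 (SE 0.355) above CEM/WT_BTZ in CEM/BTZ7, a 61.8-fold difference, and 7.60 (SE 0.383) above CEM/WT, a 194-fold difference. Of 17372 genes it ranked at 3 by the increase of CEM/BTZ7 over CEM/WT_BTZ and at 1 by the increase over CEM/WT. The log2 difference from the CEM/WT mean was 8.35 in CEM/BTZ100, 8.17 in CEM/BTZ200 and 7.62 in CEM/BTZ-200, and CEM/BTZ200 exceeded CEM/BTZ-200 by 0.55.

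These fold values rest on dim spots in parental cells. In the normalized values deposited by the authors, MARCKS was 4.80 log2 units above CEM/WT_BTZ and 5.99 above CEM/WT in CEM/BTZ7. With 50 added to each intensity before the logarithm the same differences were 5.36 and 6.28. For the single samples against CEM/WT, the deposited values gave 6.69 for CEM/BTZ100, 6.48 for CEM/BTZ200 and 5.85 for CEM/BTZ-200. The direction was the same under every processing of these values, whereas the fold was not. Over CEM/WT, CEM/BTZ100 was 327-fold higher in the main processing and 103-fold higher in the deposited values. The same folds were 288 and 89.2 in CEM/BTZ200 and 197 and 57.7 in CEM/BTZ-200.

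**Figure D1:**
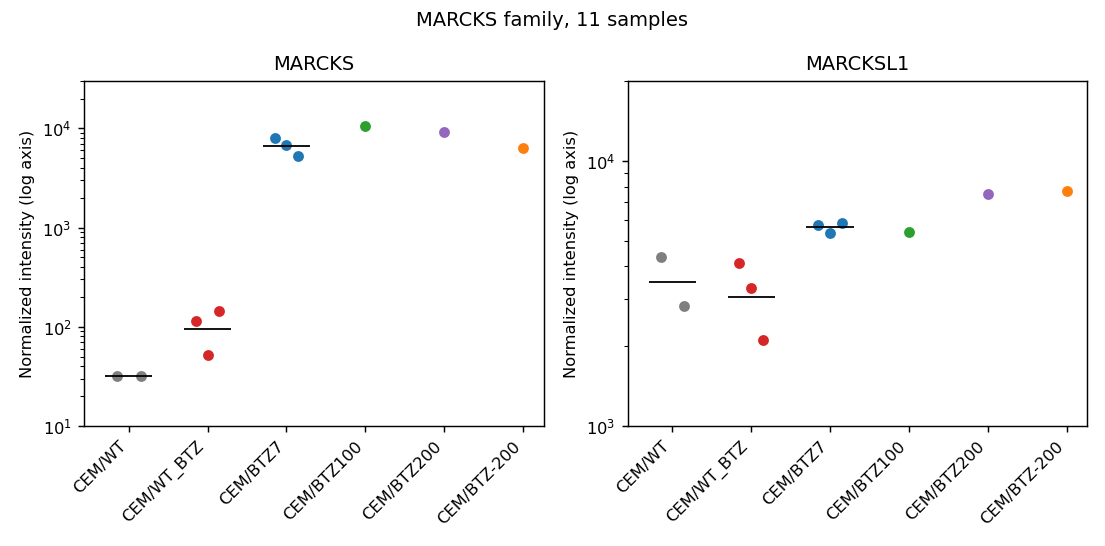
Normalized intensity (log axis) of MARCKS, left, and MARCKSL1, right, in each of the 11 samples, with groups on the horizontal axis and bars at the geometric mean of groups with replicates. MARCKS was 32.0 in both CEM/WT samples, 52.2 to 143 in CEM/WT_BTZ and 5240 or more in the resistant sublines, whereas MARCKSL1 was between 2106 and 7693 in all samples.

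Acute BTZ was compared with no drug in parental cells to see how the genes respond before resistance is acquired. MARCKS rose in CEM/WT_BTZ by 1.65 on the log2 scale (SE 0.383, adjusted p = 0.0353 by limma over 17372 genes), and by 0.92 with 50 added to the intensities (adjusted p = 0.0430). It was the only called gene of the 10 under the main test, against a background of 15.5% of all genes. This call was lost without CEM/WT 1, CEM/WT 2, CEM/WT_BTZ 1, CEM/WT_BTZ 3 or any sample of CEM/BTZ7 (adjusted p up to 0.197), with a fit to the 2 groups alone (0.111), and with the dyes of CEM/BTZ7 reassigned (0.0549). With the replicate number as a block the MARCKS difference was 1.62 (adjusted p = 0.0172), and 2 of the 10 genes were called, against a background of 37.5%. The other gene was PRKCH. The median log2 difference was 0.21 over the 10 genes and -0.02 over all genes. The values of CEM/WT_BTZ and CEM/WT did not overlap for 5 of the 10 genes (MARCKS, PRKCB, PRKCD, PRKCH and PRKCQ), against 46.4% of all genes.

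CEM/BTZ7 was compared with parental cells under the same BTZ concentration to separate the resistant from the acute state. Of the 9 genes other than MARCKS, 3 were called, MARCKSL1 and PRKCH higher and PRKCE lower, against a background of 22.3%. Under the replicate block 6 of the 9 were called (PRKCB was added to the higher genes and PRKCI and PRKCZ to the lower), against 44%. Groups did not overlap for 6 of 9 genes (MARCKSL1, PRKCA, PRKCB, PRKCE, PRKCH and PRKCI), against 42.6% of all genes. Their median log2 difference was 0.26 and that of all genes 0.01. Against untreated CEM/WT none of the 9 was called by limma, where 3.44% of all genes were, and 4 had an unadjusted p under 0.05. Under the block 2 of 9 were called (MARCKSL1 higher, PRKCE lower), against 8.17%. In that comparison 5 of 9 genes did not overlap, against 33.4% of all genes, and the median was -0.15 against -0.04 over all genes. The comparisons share samples, so an unusual value in CEM/WT_BTZ enters both comparisons that use it.

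**Figure D2:**
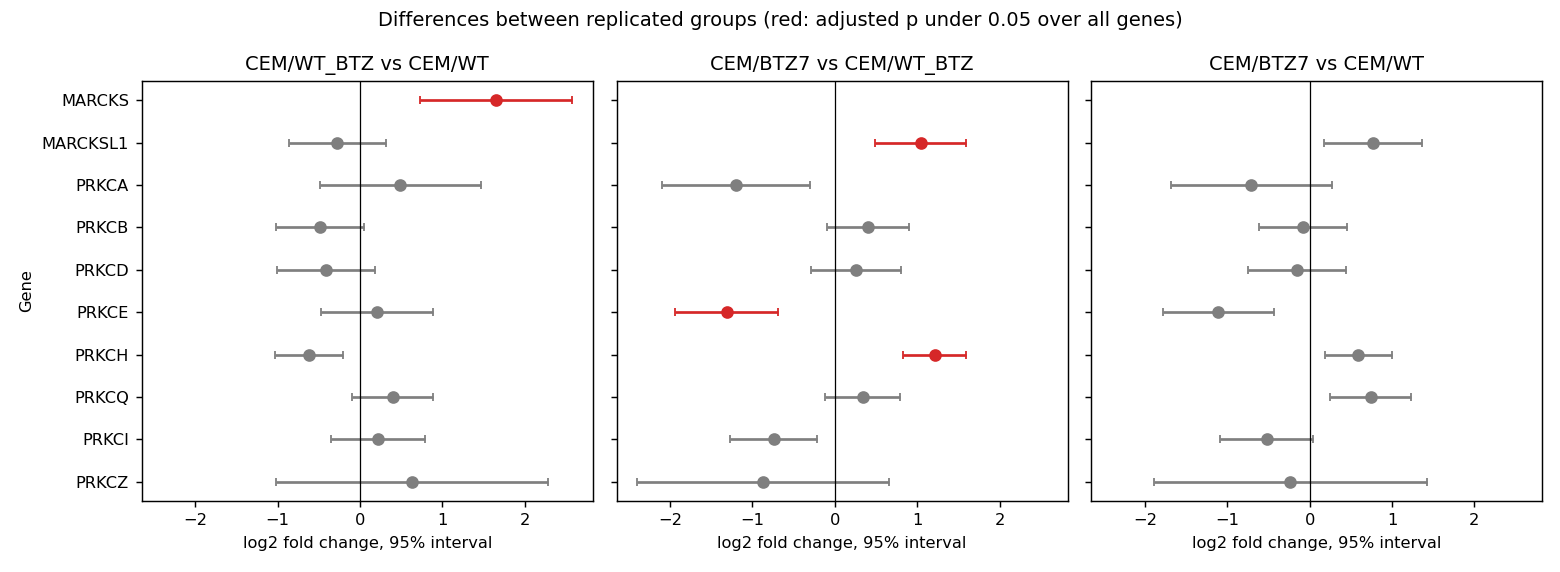
Log2 fold change (horizontal axis) with its 95% interval for each gene in the 3 comparisons of replicated groups, from limma, with genes called at an adjusted p under 0.05 over all genes in red. MARCKS is drawn only for CEM/WT_BTZ against CEM/WT, where it is the called gene, and PRKCH and MARCKSL1 (higher) and PRKCE (lower) are called in CEM/BTZ7 against CEM/WT_BTZ.

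MARCKSL1, the substrate closest to MARCKS, differed far less. It gave 4352 and 2824 in CEM/WT and 4123, 3328 and 2106 in CEM/WT_BTZ. In CEM/BTZ7 it gave 5748, 5361 and 5810. All CEM/BTZ7 values were above all parental values, while the treated and untreated parental groups overlapped. MARCKSL1 rose in CEM/BTZ7 by 1.04 log2 units over CEM/WT_BTZ (SE 0.227, adjusted p = 0.0226 by limma). The call was lost without CEM/WT_BTZ 2, CEM/WT_BTZ 3, CEM/BTZ7 1 or CEM/BTZ7 2 (adjusted p up to 0.0839) and without the dye term (0.0569). Against CEM/WT the difference was 0.77 (adjusted p = 0.204), and 0.88 with the block (adjusted p = 0.0334). The single samples gave 5374 (CEM/BTZ100), 7471 (CEM/BTZ200) and 7693 (CEM/BTZ-200), above all 5 parental samples. MARCKSL1 thus lay 0.62, 1.09 and 1.13 log2 units above the CEM/WT mean in these sublines.

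PRKCH, a diacylglycerol-dependent isoform expressed in T cells, had the lowest adjusted p among the PKC genes. Its brightest probe gave 4795 and 5545 in CEM/WT, 3296, 3071 and 3558 in CEM/WT_BTZ, and 7884, 8110 and 7681 in CEM/BTZ7. The 3 groups did not overlap, with treated parental cells lowest and CEM/BTZ7 highest. PRKCH rose in CEM/BTZ7 by 1.21 log2 units over CEM/WT_BTZ (SE 0.157, adjusted p = 0.00453 by limma), a call kept when each of the 8 samples of the replicated groups was left out (adjusted p at most 0.0344). In CEM/WT_BTZ it was 0.62 below CEM/WT (adjusted p = 0.0559), and 0.64 below with the block (log2 fold change -0.64, adjusted p = 0.0215). Against CEM/WT it was 0.59 higher in CEM/BTZ7 (adjusted p = 0.154). Between the replicated groups the summed T cell markers moved with PRKCH in both directions, as given above. The marker sums were 81051 in CEM/BTZ100, 101832 in CEM/BTZ200 and 114999 in CEM/BTZ-200. The sums in CEM/BTZ200 and CEM/BTZ-200 lay inside the CEM/WT range, and that in CEM/BTZ100 lay below it. The part of marker shifts in the PRKCH values was not tested. In the single samples PRKCH gave 5475 in CEM/BTZ100, 941 in CEM/BTZ200 and 5580 in CEM/BTZ-200. CEM/BTZ200 was therefore below every other sample, at -2.45 log2 units from CEM/WT and -2.57 from CEM/BTZ-200.

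A second, dimmer PRKCH probe did not repeat that low value. It gave 75.3 in CEM/BTZ200 and 132 and 50.2 in CEM/WT, a log2 difference of -0.11, and 140.5 in CEM/BTZ-200, which left CEM/BTZ200 0.90 lower (log2 difference -0.90). In CEM/WT_BTZ it gave 85.3, 27.2 and 53.6, and in CEM/BTZ7 188, 77.9 and 164. Its values spread widely within groups, and the difference between CEM/BTZ7 and CEM/WT_BTZ was 1.58 (SE 0.588, adjusted p = 0.121 by limma over all 37422 probes, of which 16.3% were called).

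PRKCE, a diacylglycerol-dependent isoform with an actin-binding motif, was the PKC gene whose group means spanned the widest range (3.85 log2 units). It gave 1858 and 1882 in CEM/WT and 2393, 2191 and 1817 in CEM/WT_BTZ. In CEM/BTZ7 it gave 1013, 1071 and 633. All CEM/BTZ7 samples were below all parental samples. PRKCE fell by 1.31 log2 units in CEM/BTZ7 relative to CEM/WT_BTZ (SE 0.260, adjusted p = 0.0166 by limma), a call lost without CEM/BTZ7 3 (0.0695). Relative to CEM/WT the log2 difference was -1.11 (adjusted p = 0.110), and -0.94 with the block (adjusted p = 0.0334). PRKCE gave 147 in CEM/BTZ100, 212 in CEM/BTZ200 and 1193 in CEM/BTZ-200. The sublines under high BTZ were the lowest of all samples, at -3.67 and -3.14 log2 units from CEM/WT, whereas the drug-free subline was at -0.65, within 1 log2 unit of the parental mean. CEM/BTZ200 was 2.49 log2 units below CEM/BTZ-200 (log2 difference -2.49).

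The second PRKCE probe was dim and repeated only part of this pattern. It gave 24.5 and 42.1 in CEM/WT, 64.7, 74.8 and 49.7 in CEM/WT_BTZ, 12.2, 26.1 and 28.0 in CEM/BTZ7 and 32.3 in CEM/BTZ-200. CEM/BTZ7 was below CEM/WT_BTZ but overlapped with CEM/WT, and CEM/BTZ-200 lay between the CEM/WT samples. This probe was not above background in CEM/BTZ100 and CEM/BTZ200, so only a bound can be given there. Taking the dim side at the lowest signal that was above background in that sample, PRKCE was at least 3.10-fold lower in CEM/BTZ100 and at least 1.82-fold lower in CEM/BTZ200 than in CEM/WT, and at least 1.83-fold lower in CEM/BTZ200 than in CEM/BTZ-200. Between CEM/BTZ7 and CEM/WT_BTZ this probe differed by -1.52 (SE 0.417, adjusted p = 0.0544 by limma over all probes).

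PRKCD and PRKCQ, the remaining diacylglycerol-dependent isoforms, were not called in any comparison. PRKCD, measured by 1 probe with 10 spots, lay between 928 and 1483 in all 11 samples. Its log2 differences were -0.41 in CEM/WT_BTZ against CEM/WT (95% interval -1.0 to 0.18) and 0.26 in CEM/BTZ7 against CEM/WT_BTZ (-0.29 to 0.81). PRKCQ gave 1516 and 1123 in CEM/WT, 2060, 1654 and 1690 in CEM/WT_BTZ, and 1821, 1870 and 2680 in CEM/BTZ7. Both treated and resistant samples were thus above the untreated samples for PRKCQ. Its log2 difference was 0.74 in CEM/BTZ7 against CEM/WT (95% interval 0.25 to 1.23, adjusted p = 0.140 by limma). PRKCQ gave 2157, 1912 and 1710 in CEM/BTZ100, CEM/BTZ200 and CEM/BTZ-200, inside the range of CEM/WT_BTZ and CEM/BTZ7.

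Among the conventional isoforms, PRKCB varied little by its brightest probe. It gave 10035 and 8654 in CEM/WT, 7181, 5889 and 6801 in CEM/WT_BTZ, and 10524, 8949 and 7541 in CEM/BTZ7. Treated parental cells were lowest and did not overlap with either other group. In CEM/BTZ7 the log2 difference from CEM/WT_BTZ was 0.40 (adjusted p = 0.214 by limma), and 0.37 with the block (adjusted p = 0.0440). The single samples lay between 8171 and 8983, and none of the 3 PRKCB probes differed from CEM/WT by more than 0.31 log2 units there.

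PRKCA, the conventional isoform that is widely expressed, stood out in the drug-free subline. Its brightest probe gave 115 and 126 in CEM/WT, 161, 115 and 241 in CEM/WT_BTZ, and 50.01, 98.1 and 87.4 in CEM/BTZ7. CEM/BTZ7 was below all parental samples, and its log2 difference from CEM/WT_BTZ was -1.20 (SE 0.375, adjusted p = 0.0663 by limma). That difference passed the threshold in some settings (adjusted p = 0.0469 without the dye term, 0.0494 with 50 added and 0.0427 with only genes above background in all samples). PRKCA gave 255 in CEM/BTZ100, 142 in CEM/BTZ200 and 1012 in CEM/BTZ-200. CEM/BTZ-200 was thus far above all other samples, at 3.07 log2 units over CEM/WT, and CEM/BTZ200 was at -2.83 from CEM/BTZ-200. The second PRKCA probe, with 10 spots whose log2 SD within a sample had a median of 0.514, gave 34.6 in the drug-free subline, 26.4 in CEM/BTZ200 and 19.4 and 27.2 in CEM/WT. It was 0.59 log2 units above CEM/WT in CEM/BTZ-200, so the probes of this gene differ in size by over 2 log2 units there. In the deposited normalized values the brightest probe gave 2.55 for the same difference.

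**Figure D3:**
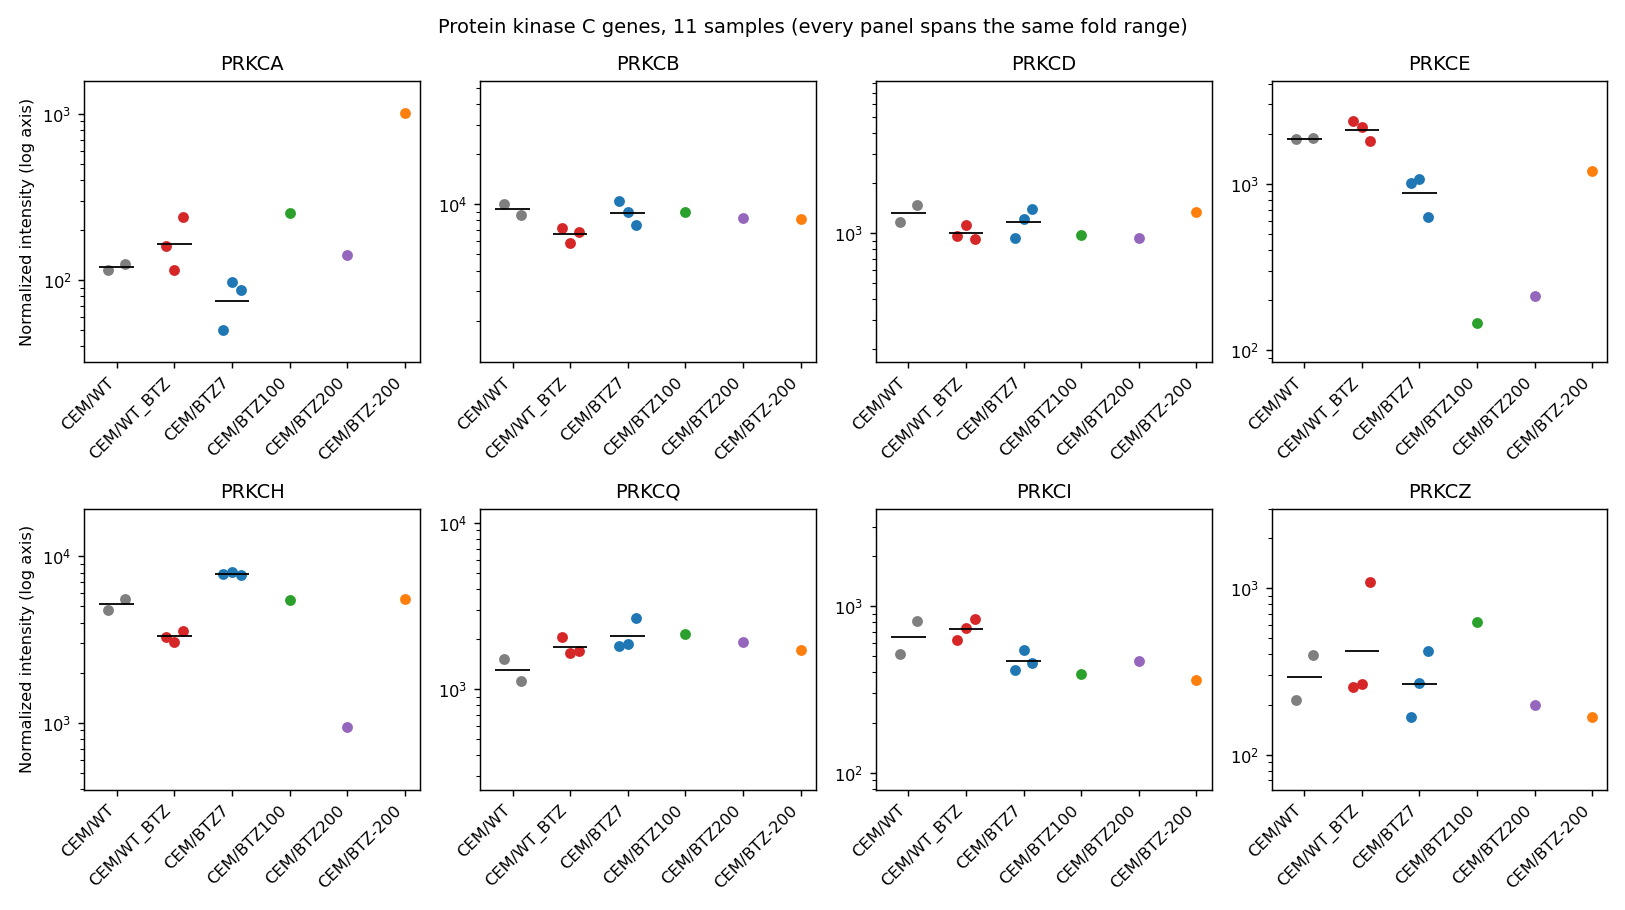
Normalized intensity (log axis) of the 8 PKC genes in the 11 samples, from the brightest probe of each gene, with bars at the geometric mean of groups with replicates and the same fold range in every panel. PRKCE was lowest in CEM/BTZ100 (147) and CEM/BTZ200 (212), PRKCH in CEM/BTZ200 (941), and PRKCA was highest in CEM/BTZ-200 (1012).

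The atypical isoform PRKCI was lower in all 6 resistant samples than the mean of either parental group. It gave 516 and 821 in CEM/WT, 630.5, 737 and 839 in CEM/WT_BTZ, and 413, 547 and 459 in CEM/BTZ7. CEM/BTZ7 did not overlap with CEM/WT_BTZ but did overlap with CEM/WT. The log2 difference of CEM/BTZ7 from CEM/WT_BTZ was -0.74 (SE 0.219, adjusted p = 0.0565 by limma), and -0.71 with the block (adjusted p = 0.0130). A second PRKCI probe gave a difference of -0.72 (adjusted p = 0.0709 over all probes by limma). CEM/BTZ100, CEM/BTZ200 and CEM/BTZ-200 gave 394, 468 and 362, all below both CEM/WT samples.

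PRKCZ, the other atypical isoform, differed more between replicates than between groups. It gave 214 and 399 in CEM/WT, 256, 267 and 1092 in CEM/WT_BTZ, and 169, 270 and 419 in CEM/BTZ7. CEM/WT_BTZ 3 was the highest sample, and the groups overlapped. CEM/BTZ7 differed from CEM/WT_BTZ by -0.87 (SE 0.636, adjusted p = 0.383 by limma), and by -0.84 with the block (adjusted p = 0.0242). Without the block, leaving out CEM/WT_BTZ 3 turned the difference to 0.15, and leaving out CEM/BTZ7 3 made it -2.02, so its size and direction rest on these samples. PRKCZ gave 624 in CEM/BTZ100, 198 in CEM/BTZ200 and 169 in CEM/BTZ-200. A second PRKCZ probe was above background in only 4 of 11 samples.

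**Figure D4:**
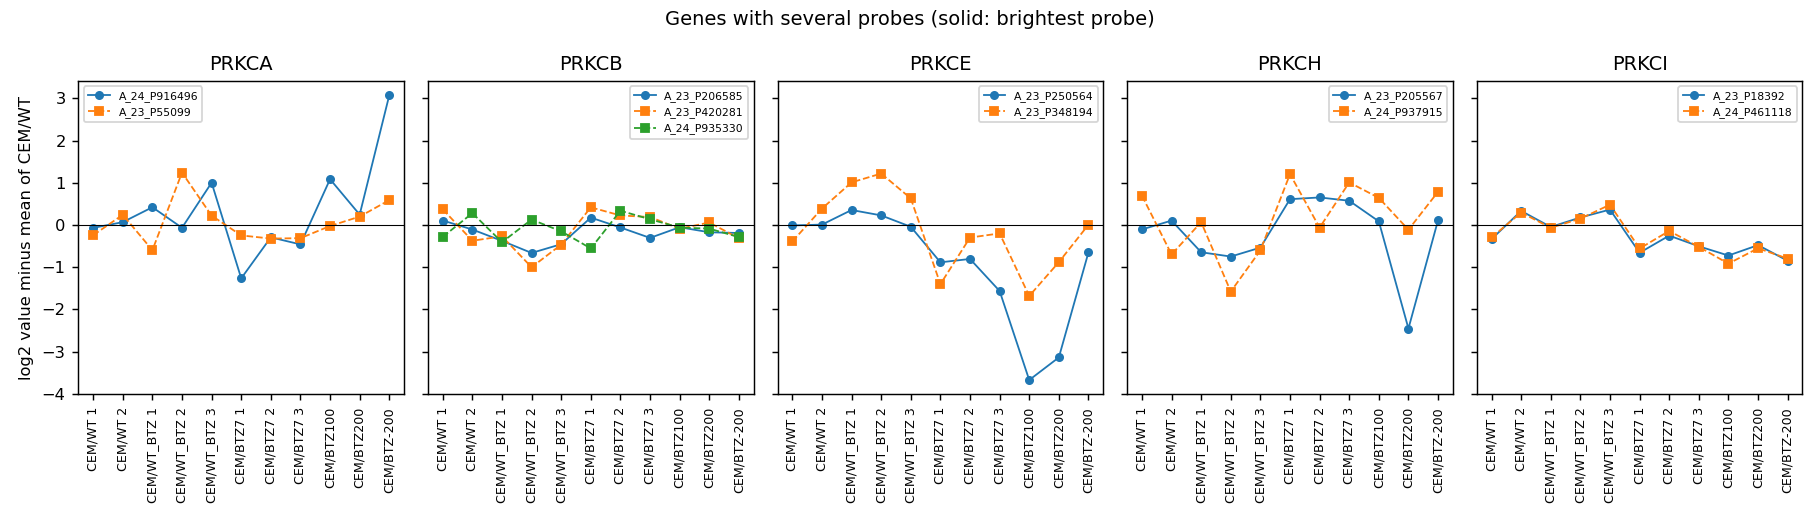
Log2 value minus the CEM/WT mean (vertical axis) in each of the 11 samples for PKC genes with several probes above background in most samples, where solid lines are the brightest probe of a gene and dashed lines its other probes. The PRKCI probes ran together, the PRKCE probes were both low in CEM/BTZ100 and CEM/BTZ200 (-3.67 and -3.14 for the brightest), and the PRKCA and PRKCH probes differed in CEM/BTZ-200 and CEM/BTZ200.

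In the single samples a gene was counted where it differed from the CEM/WT mean by over 2-fold, without a test. In CEM/BTZ100, 4 of the 10 genes did, MARCKS, PRKCA and PRKCZ higher and PRKCE lower, against a background of 16.0% of all genes. In CEM/BTZ200, 4 did, MARCKS and MARCKSL1 higher and PRKCE and PRKCH lower, against 15.3%. In CEM/BTZ-200, 3 did, MARCKS, MARCKSL1 and PRKCA, all higher, against 19.6%. MARCKS was singled out from these samples for its level in the resistant sublines, so these counts were also taken without it. Of the other 9 genes, 3 differed in CEM/BTZ100, 3 in CEM/BTZ200 and 2 in CEM/BTZ-200, beside the same shares of all genes. CEM/BTZ-200 was derived from CEM/BTZ200 by culture without drug, and between them 3 genes differed by over 2-fold, PRKCA, PRKCE and PRKCH, all lower in CEM/BTZ200, against 16.0% of all genes. In CEM/BTZ100 the differences of PRKCA (1.09) and PRKCZ (1.10) were just past 2-fold, and the count of the 10 genes was 2 in the deposited values. These sublines have 1 sample each, and CEM/BTZ200 carried Cy3 but CEM/BTZ-200 Cy5, so that dye, drug and time in separate culture cannot be told apart between them.

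**Figure D5:**
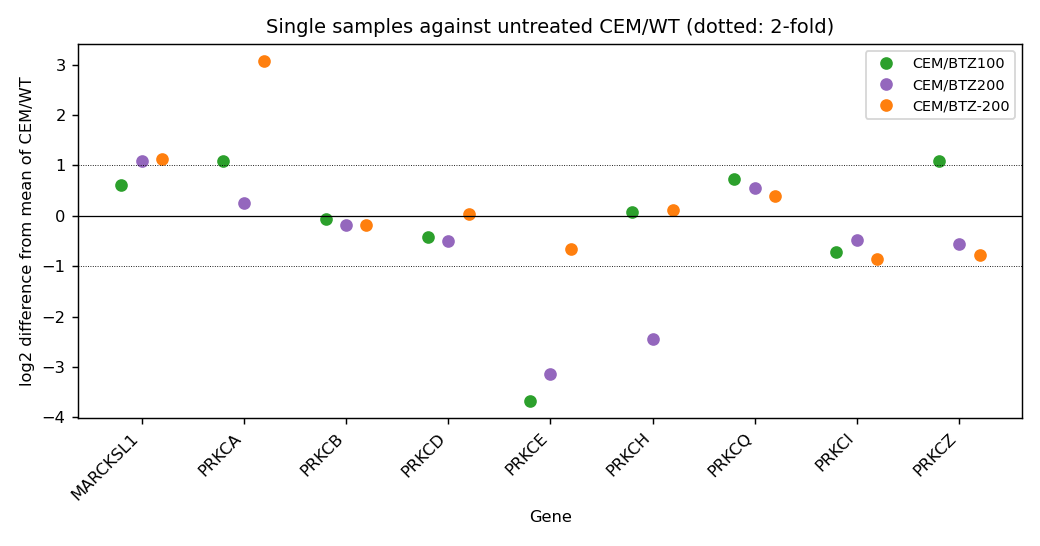
Log2 difference from the CEM/WT mean (vertical axis) of the 9 genes other than MARCKS in the single samples of CEM/BTZ100, CEM/BTZ200 and CEM/BTZ-200, with dotted lines at 2-fold. The points furthest from 0 are PRKCE in CEM/BTZ100 (-3.67) and CEM/BTZ200 (-3.14), PRKCA in CEM/BTZ-200 (3.07) and PRKCH in CEM/BTZ200 (-2.45).

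The genes whose pattern was most like that of MARCKS over the 11 samples, among 14505 genes with a range of at least 1 log2 unit, were CCDC71L (Pearson r = 0.988), ZDHHC15 (0.985), MSANTD3 (0.983), BEND4 (0.983) and ZBTB8A (0.981). The samples fall into 5 parental and 6 resistant ones, and within the 6 resistant samples r was between -0.10 (BEND4) and 0.35 (MSANTD3), so the likeness describes the step between the 2 sets. CCDC71L gave 34.5 to 160 in parental and 1135 to 1455 in resistant samples. For PRKCE the most alike were LRP4 (0.953), PECR (0.939), POGLUT2 (0.933), POU2AF1 (0.929) and SIMC1 (0.928). Within the resistant samples their r stayed between 0.885 and 0.975. All of them were lower in CEM/BTZ100 and CEM/BTZ200 than in the other resistant samples, so this r also describes a step. SIMC1 gave 5.16 in CEM/BTZ100 and 5.91 in CEM/BTZ200, below the background limits of 10.3 and 17.6. PECR, at 5.03 in CEM/BTZ200, was below that limit as well. LRP4 gave 34.8 in CEM/BTZ100, 32.5 in CEM/BTZ200, 155 in CEM/BTZ-200 and 115 to 132 in CEM/BTZ7, the same order of low and intermediate sublines as PRKCE except that CEM/BTZ100 and CEM/BTZ200 were reversed. These correlations share libraries and normalization and are given without a test.

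Around the PKC genes, 65 of 80 listed genes of diacylglycerol and PKC signalling were measured. In CEM/WT_BTZ against CEM/WT 4 were higher and 7 lower, in CEM/BTZ7 against CEM/WT_BTZ 11 were higher and 6 lower, and in CEM/BTZ7 against CEM/WT 1 was higher and 0 lower. These calls make up 16.9%, 26.2% and 1.54% of the listed genes, near the shares of all genes (15.5%, 22.3% and 3.44%), and are no result about the lists. Their median log2 differences were -0.10, 0.06 and -0.02, against -0.02, 0.01 and -0.04 over all genes. SQSTM1, which encodes p62, a scaffold for atypical PKC and a receptor for ubiquitinated proteins, gave 2560 and 2846 in CEM/WT and 19173, 19865 and 22231 in CEM/WT_BTZ, and 3101, 3582 and 3577 in CEM/BTZ7. It rose in treated parental cells by 2.93 log2 units (adjusted p = 0.00145) and fell in CEM/BTZ7 relative to treated parental cells (log2 fold change -2.60, adjusted p = 0.000861). RASGRP2, an exchange factor for Rap GTPases with a C1 domain, moved the other way, at 6815 and 6450 in CEM/WT, 1632, 1905 and 1478 in CEM/WT_BTZ, and 8760, 7868 and 8484 in CEM/BTZ7. Its log2 fold changes were -2.02 (adjusted p = 0.00340) and 2.37 (adjusted p = 0.00103). The calls of SQSTM1 and RASGRP2 in both comparisons were kept when each sample was left out.

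PPP1R14B, a phosphatase inhibitor activated by PKC, gave -1.64 log2 units in CEM/WT_BTZ against CEM/WT and 1.68 in CEM/BTZ7 against CEM/WT_BTZ (adjusted p = 0.00976 and 0.00479), and the first call was lost without CEM/WT 1 or CEM/WT 2 (up to 0.114). Of 4 measured genes of the CARMA1 complex, which links PKC to NF-κB in lymphocytes, 2 rose in CEM/WT_BTZ and 3 fell in CEM/BTZ7 relative to it, where 15.5% and 22.3% of all genes were called, among them BCL10 (0.97, adjusted p = 0.0162, and -0.88, adjusted p = 0.0124) and MALT1 in the second (-0.95, adjusted p = 0.0208). BCL10 gave 610 and 684 in CEM/WT, 1216, 1231 and 1319 in CEM/WT_BTZ, and 664, 699 and 709 in CEM/BTZ7, with no overlap between treated parental cells and the others. Leaving out samples ended the BCL10 calls (CEM/WT 1, CEM/WT 2, CEM/WT_BTZ 1 or CEM/BTZ7 2 in the first, up to 0.156, and CEM/BTZ7 2 in the second, 0.0563) and the MALT1 call (CEM/WT_BTZ 1, CEM/WT_BTZ 3, CEM/BTZ7 1 or CEM/BTZ7 2, up to 0.0777). Of 10 phospholipase C genes, which make diacylglycerol, PLCG2 fell in CEM/WT_BTZ (log2 fold change -0.89) and was higher in CEM/BTZ7 relative to it (0.76). Of 8 diacylglycerol kinases, which remove it, DGKH was lower in CEM/WT_BTZ (-1.28) and higher in CEM/BTZ7 (1.23), and DGKA was higher in CEM/BTZ7 (0.65). PARD6A, a polarity partner of atypical PKC, gave -1.92 and 1.45. PRKD1, a kinase that PKC activates, gave 1.46 in the second comparison, where its adjusted p by limma was 0.0512 with the block. Its signal was dim, at 23.1, 10.3 and 8.25 in CEM/WT_BTZ and 31.1, 36.9 and 30.0 in CEM/BTZ7. The PRKD1 value in CEM/WT_BTZ 3 was below the background limit of that sample (11.4). None of the calls of PLCG2, DGKH, DGKA, PARD6A and PRKD1 was kept in every fit with 1 sample left out. That of DGKA (adjusted p = 0.0467 by limma) was lost without any 1 of the 8 samples of the replicated groups.

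Of 8 measured genes for phospholipase D and for kinases that make PIP2, the lipid that MARCKS sequesters, 2 (PIP5K1C and PIP4K2B) were called in CEM/WT_BTZ against CEM/WT and again in CEM/BTZ7 against CEM/WT_BTZ, 25% of the list against 15.5% and 22.3% of all genes. PIP5K1C gave 10750 and 9915 in CEM/WT, 61410, 43000 and 22423 in CEM/WT_BTZ, and 11122, 7471 and 5362 in CEM/BTZ7, and all treated parental samples were highest. Its log2 fold changes were 1.89 and -2.29, whereas PIP4K2B gave -1.12 and 0.92. Of the 9 other membrane and cytoskeleton substrates of PKC that were measured, none was called by limma in any of the 3 comparisons, and with the block 3 were called in CEM/WT_BTZ against CEM/WT and 2 in CEM/BTZ7 against CEM/WT_BTZ (33.3% and 22.2%, below the 37.5% and 44% of all genes). CHN1, a diacylglycerol-binding Rac GTPase-activating protein, was the only listed gene higher in CEM/BTZ7 than in CEM/WT (1.68, adjusted p = 0.0370), a call lost without any single sample other than CEM/WT_BTZ 3 (up to 0.327). It gave 156 and 180 in CEM/WT and 479, 530 and 654 in CEM/BTZ7, and 170, 1662 and 1114 in CEM/BTZ100, CEM/BTZ200 and CEM/BTZ-200. CEM/BTZ100 was thus within the untreated range for CHN1 while the other sublines were above it. Of the 22 calls of the 13 listed genes named here, 5 were kept when each sample was left out in turn, namely those of SQSTM1 and RASGRP2 and that of PPP1R14B in CEM/BTZ7 against CEM/WT_BTZ.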

How the data were processed

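Gene expression was measured in 11 samples, 6 labelled with Cy3 and 5 with Cy5, on Agilent 4x44K whole human genome arrays quantified with Agilent Feature Extraction. The authors deposited a table of linear intensities per spot and a second table of log2 values that, per the methods, were background corrected and normalized by loess and quantile in limma. Here the deposited intensities of 45015 spots were quantile-normalized over all samples and log2-transformed, and control spots were left out after normalization. Spots of a probe were averaged, and 37422 of 41000 probes above the 95th percentile of the negative controls in at least 2 samples were kept. A gene was represented by its brightest kept probe. Gene names came from the platform annotation, with 29203 probes updated by gene ID, 11 by accession, 30 kept, 84 with several genes and 11672 with none. Levels of different probes were set side by side only to choose or describe a brighter or dimmer probe of a gene. They were added together only in the T cell marker sums.

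Differences were tested with limma 3.58.1 in R 4.3.3, with group and dye as terms over all 11 samples (4 residual degrees of freedom, 2.40 prior), Benjamini-Hochberg adjustment over 17372 genes and a threshold of 0.05. The dye term made no calls. The arrays that samples shared are not given, so array was not used as a block. Precision is limited by the number of arrays. The steps were tested on simulated data with independent noise and without dye or replicate effects, for CEM/BTZ7 against CEM/WT_BTZ only. That simulation does not cover correlation between samples with the same replicate number. The members, the pathway and marker lists and the tests were chosen with earlier results of these data known. Named pathway genes were the 2 of each list with the largest change among those called in any comparison (1 where a list had 1). Genes alike in pattern were the 5 with the highest Pearson correlation.

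Replicate numbers are shared between groups in the labels. Deviations from the group mean correlated at 0.295 to 0.534 in 7 pairs of samples with the same number. They correlated at -0.465 to 0.0718 in 14 pairs with different numbers. Deviations within a group sum to 0, so the second set partly follows from the first and is not separate evidence. The numbers were taken to pair the samples in an alternative fit with the replicate block, which has only 2 residual degrees of freedom. The main fit leaves this pairing out. For CEM/BTZ7 the intensity columns 1, 2 and 3 correlated best with columns 2, 3 and 1 of the value table. The dyes were therefore also reassigned by that match, an alternative chosen after seeing the data. The replicate block kept the numbers of the intensity columns and was not reassigned. Other alternatives were the deposited log2 values, 75th percentile scaling, 50 added before log2, other filters, the mean of the probes of a gene, no dye term, a variance trend, fits to 2 groups and leaving out each replicate.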

Additional observations from a re-analysis of the deposited data

How the results depend on the processing

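No called result changed direction. The replicate block changed no call of the 10 genes other than those given in the report. In CEM/WT_BTZ against CEM/WT, 1 of the 10 genes was called, and the number was 2 with the replicate block, without the dye term, with a variance trend, with 50 added, with no filter and with only genes above background in all samples, and 0 with the 2 groups alone or with dyes reassigned by the value table. In CEM/BTZ7 against CEM/WT_BTZ it was 3 of 9, and 6 with the replicate block, 5 with 50 added and 5 with only genes above background in all samples. In CEM/BTZ7 against CEM/WT it was 0, and 2 with the replicate block, 1 in the deposited values and 1 with 50 added. Over all genes the calls were 2692, 3867 and 597, and 6518, 7652 and 1420 with the replicate block, with 670 for the first and 389 for the third with 2 groups alone, and 936 for the third with 50 added. Leaving out replicates gave 0 to 1, 2 to 3 and 0 to 0 genes of the family, and 221 to 2469, 1518 to 3451 and 117 to 653 over all genes. Genes of the family, MARCKS included, beyond 2-fold in CEM/BTZ100 were 4, and 2 in the deposited values, with 50 added and with the mean of the probes. Leaving out a CEM/WT sample gave 4 to 4 in CEM/BTZ100, 3 to 5 in CEM/BTZ200 and 2 to 5 in CEM/BTZ-200. The cause of these shifts was not tested. The dim spots of MARCKS in parental cells limit the size of its fold.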
